A study of Mus musculus with 12 samples.

Results

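Claudins are small proteins that cross the membrane several times and form the strands of tight junctions, the seals that in the liver keep bile in the canaliculus between neighbouring hepatocytes and apart from blood. Some claudins tighten the seal and others, such as claudin 2, form channels for small ions and water. Occludin (*Ocln*) lies in the same strands, and ZO-1 (*Tjp1*) is a plaque protein that ties the strands to actin. The 10 genes described here are 8 claudin genes (*Cldn1*, *Cldn2*, *Cldn3*, *Cldn4*, *Cldn6*, *Cldn7*, *Cldn12* and *Cldn14*) with *Tjp1* and *Ocln*. All 10 are annotated as protein-coding, and positions below are on GRCm38. They were taken by symbol from the deposited tables, where all 10 were found among 41743 genes.

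Whole liver RNA of 12 females, 3 to 4 months old, was sequenced in 4 groups of 3. YAP KO mice carried *Foxa3*-Cre, *Yap1* fl/fl and the ROSA-stop fl/fl-EYFP reporter and were on the C57BL/6 strain, and their controls were WT mice of that strain. YAP KO TAZ HET mice, called YKTH as in the labels, carried *Foxa3*-Cre and *Yap1* fl/fl and in addition lost 1 copy of *Wwtr1*, the gene of TAZ, on a mixed C57BL/6-FVB strain, and their controls were WT mice of the mixed strain. The WT mice were littermates, and which floxed alleles or Cre they carried is not given in the labels. The *Foxa3* promoter drives Cre in the early foregut endoderm, so hepatocytes and the precursors of bile ducts are both hit, while endothelial, stellate and immune cells are not of that lineage. The comparisons ask how each model differed from its own WT group and whether the models differed from each other.

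Each value is a TPM (transcripts per 1000000), which is scaled for transcript length and library total, so levels of different genes can be set side by side. TPM keep no record of the reads counted for a gene, so the counting error of a value was not estimated. *Yap1* was at 28.2 to 30.5 TPM in WT (C57BL/6) and at 1.67 to 3.72 TPM in YAP KO livers, and at 31 to 33.2 TPM in WT (mixed) and 8.63 to 11.5 TPM in YKTH livers. *Wwtr1* was at 6.26 to 6.83 and 13.3 to 16.7 TPM in the first pair of groups and at 7.73 to 8.38 and 11.5 to 14.1 TPM in the second, so the lost copy of *Wwtr1* does not show as a lower level than in WT livers.

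Promoter sequence is shown for the 4 genes that passed the test in the upward direction in both models (*Cldn7*, *Cldn1*, *Ocln* and *Cldn2*), because these are the members called higher in both. Each run is the 250 bases before the RefSeq transcription start (GRCm38.p6) nearest to the gene start in the files, 5′ to 3′ on the gene's strand. Capitals mark GGAATG, the core letters bound by TEAD factors, the DNA-binding partners of YAP and TAZ. The windows are chr11:69964529-69964778 (plus strand) for *Cldn7*, chr16:26371840-26372089 (minus strand) for *Cldn1*, chr13:100552719-100552968 (minus strand) for *Ocln* and chrX:139800558-139800807 (plus strand) for *Cldn2*.
Cldn7: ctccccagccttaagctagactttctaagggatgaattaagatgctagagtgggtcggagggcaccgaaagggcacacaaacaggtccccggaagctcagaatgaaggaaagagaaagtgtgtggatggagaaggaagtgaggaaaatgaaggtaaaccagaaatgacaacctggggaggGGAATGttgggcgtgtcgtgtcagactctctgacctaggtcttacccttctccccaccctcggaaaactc
Cldn1: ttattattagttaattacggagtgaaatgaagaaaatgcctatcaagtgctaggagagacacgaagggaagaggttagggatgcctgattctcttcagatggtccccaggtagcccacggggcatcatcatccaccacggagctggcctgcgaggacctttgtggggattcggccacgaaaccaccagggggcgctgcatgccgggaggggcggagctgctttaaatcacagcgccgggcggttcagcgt
Ocln: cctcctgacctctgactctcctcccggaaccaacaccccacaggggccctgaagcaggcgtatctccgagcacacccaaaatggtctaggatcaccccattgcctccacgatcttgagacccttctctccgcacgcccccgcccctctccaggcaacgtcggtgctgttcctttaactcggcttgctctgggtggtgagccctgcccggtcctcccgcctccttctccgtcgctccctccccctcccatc
Cldn2: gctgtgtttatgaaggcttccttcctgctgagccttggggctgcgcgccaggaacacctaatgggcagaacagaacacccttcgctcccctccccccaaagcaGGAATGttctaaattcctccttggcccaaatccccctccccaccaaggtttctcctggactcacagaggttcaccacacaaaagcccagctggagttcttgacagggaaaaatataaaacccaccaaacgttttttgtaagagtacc

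GGAATG was searched on both strands. The *Cldn7* window holds 1 match, which begins 70 bases before the start, and the *Cldn2* window holds 1, which begins 147 bases before it. Neither the *Cldn1* nor the *Ocln* window holds one. Over all 10 genes 2 windows had a match, and 12.6% of the 32851 RefSeq promoter windows of the same length had one. The AP-1 letters TGACTCA, also searched on both strands, were in 1 of the 10 windows, that of *Cldn4*, with 2 matches, and in 4.46% of all windows. These are matches of letters and not measured binding sites.

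In WT livers *Cldn3* was the most abundant of the 10 genes, followed by *Cldn2* and *Cldn12*, while *Cldn7*, *Cldn6* and *Cldn4* were under 1 TPM on average. In WT (C57BL/6) livers *Cldn3* stood at 159 ± 14.1 TPM (SD, n = 3), *Cldn2* at 41.5 ± 5.78 and *Cldn12* at 33.7 ± 0.994, and these ranges did not overlap. *Cldn1*, *Tjp1*, *Cldn14* and *Ocln* followed, between 17.2 and 7.67 TPM on average, and each overlapped with its neighbour in that order. *Cldn7* was at 0.737 ± 0.388 TPM, *Cldn6* at 0.302 ± 0.0808 and *Cldn4* at 0.182 ± 0.104 (SD, n = 3), and neighbours in this order overlapped. The order was the same in WT (mixed) livers, where *Cldn3* stood at 145 ± 6.53 TPM (SD, n = 3), and there *Cldn2* and *Cldn12* overlapped.

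The order changed in both models. *Cldn1* moved above *Cldn12* to the third place, at 62.5 ± 16.6 TPM in YAP KO and 59.9 ± 16.1 TPM in YKTH livers (n = 3 each, with the SD), without overlap with *Cldn12*. In both models the *Cldn1* range overlapped with that of *Cldn2*. *Ocln* moved above *Tjp1*, and *Cldn7* rose to the level of *Tjp1*, with overlapping ranges. *Cldn3* remained first in all 4 groups.

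**Figure D1:**
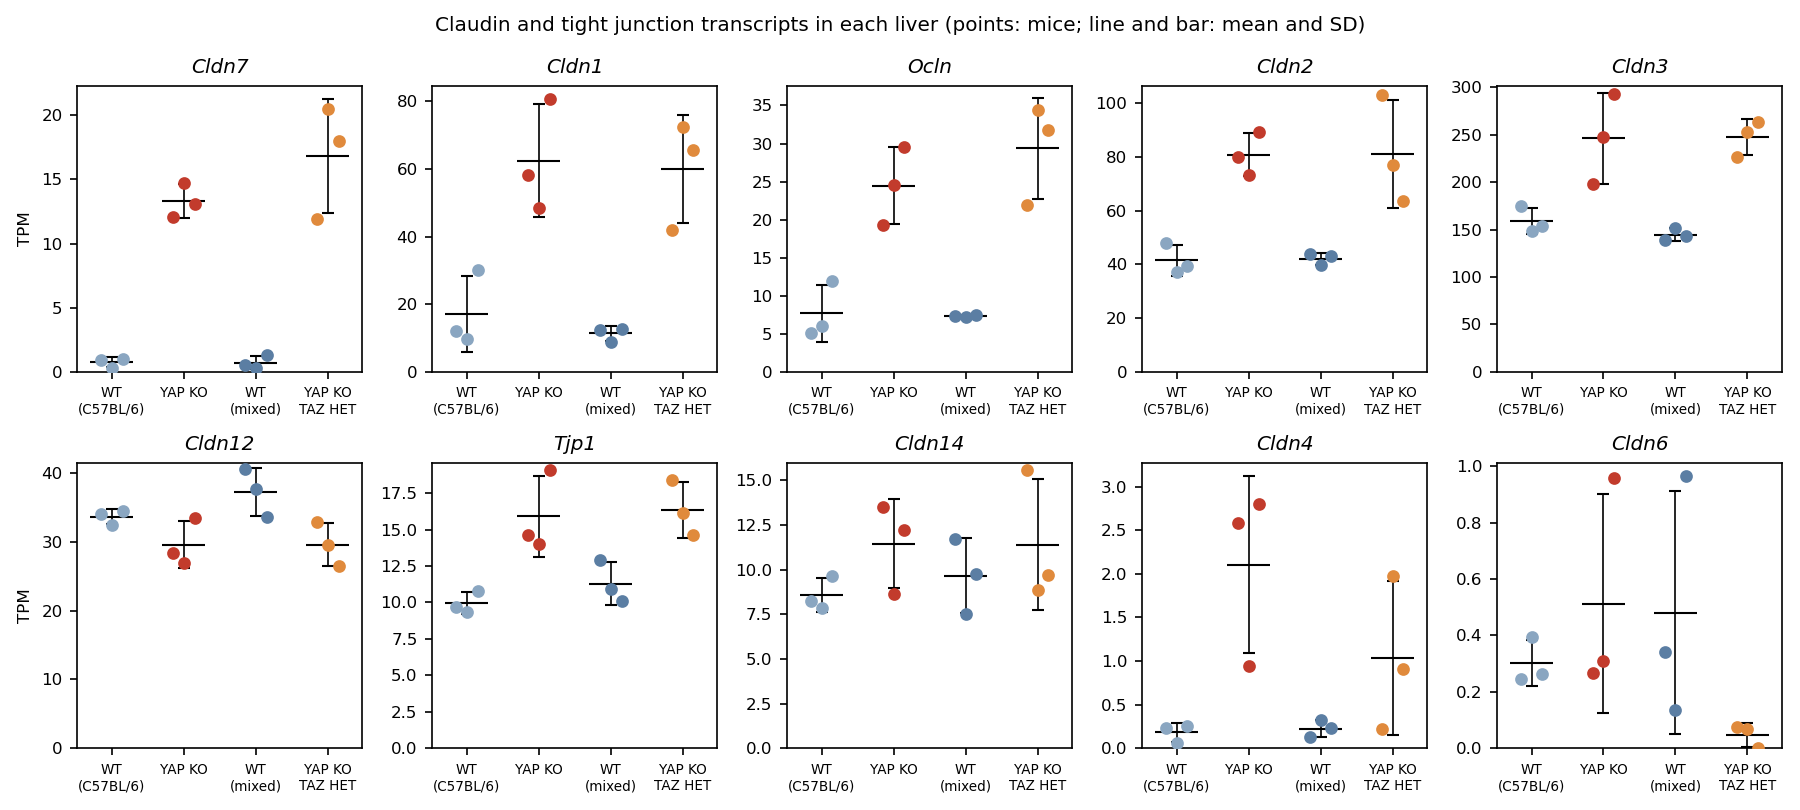
TPM of the 10 genes (vertical axis, linear, from 0) in the 4 groups of 3 livers (horizontal axis), with a point for each mouse and the group mean and SD. Cldn7 lies at 0.291 to 1.28 TPM in WT livers and at 11.9 to 20.5 TPM in knockout livers, Cldn12 is not separated between YAP KO and WT (C57BL/6) livers, and Cldn6 stays under 1 TPM in all 4 groups.

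For the tests, the TPM of each library were divided by a scaling factor, 1 was added and log2 was taken. Fold changes are on this log2(scaled TPM + 1) scale, which understates the change of low genes, and adjusted p-values come from limma with Benjamini-Hochberg adjustment over all genes that reached 1 TPM in 3 or more libraries of a fit. In each model 8 of the 10 genes passed that filter, and *Cldn4* and *Cldn6* did not. *Cldn7* passed it in the YAP KO fit only through its 3 knockout libraries, and in the YKTH fit through 3 knockout libraries and 1 WT library. In YAP KO livers 5 of the 8 passed the test, 4 higher (*Cldn7*, *Cldn1*, *Ocln*, *Cldn2*) and 1 lower (*Cldn12*), beside 36.7% of all 11704 genes tested, 18.8% higher and 17.9% lower. In YKTH livers 6 of the 8 did, 5 higher (the same 4 and *Cldn3*) and 1 lower (*Cldn12*), beside 38.2% of 11741 genes, 19.2% higher and 19.0% lower. Without scaling, 84% in place of 51.3% of the genes called in YAP KO livers were higher, and 82.2% in place of 50.2% in YKTH livers.

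Counted on TPM as deposited, 7 of the 10 genes had all 3 YAP KO mice above all 3 WT mice and none had all below, beside 47.5% of tested genes with all above and 9.29% with all below. In the mixed pair 6 were above and 2 below, beside 44.4% and 10%. The sets differ, since *Cldn4* is among those above in YAP KO livers and *Cldn6* among those below in YKTH livers. Neither passed the filter, so neither is among the tested genes of the background. The backgrounds for values above are high, so such a separation is common in these livers. It also gives the smallest p that a two-sided exact permutation test of 3 mice against 3 allows (p = 0.1). The scaling lowers knockout values relative to WT values, and leaving it out shifted the median log2 fold change of all tested genes from -0.038 to 0.278 for YAP KO and from -0.04 to 0.244 for YKTH mice. Fold changes below are thus relative to most other genes.

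These are whole livers, so fewer cells of a type and less RNA per cell cannot be told apart. Of 8 listed hepatocyte markers 7 were analysed, of which 3 fell in YAP KO and 2 in YKTH livers and 0 rose, and their summed level was 93605 to 106556 TPM in WT (C57BL/6), 76169 to 85265 TPM in YAP KO, 85027 to 108245 TPM in WT (mixed) and 72536 to 89934 TPM in YKTH livers. Most of that sum was *Alb*, at 69928 to 83138 TPM in WT (C57BL/6) and 55896 to 62811 TPM in YAP KO livers. In the mixed pair *Alb* was at 65661 to 82865 TPM in WT and 51588 to 67542 TPM in YKTH livers. Several of the 10 genes are also made by bile duct cells. The study saw no intrahepatic bile ducts in adult livers of either model on duct cytokeratin staining. The summed level of 12 biliary markers was 40.7 to 68.7 TPM in WT (C57BL/6) and 364 to 790 TPM in YAP KO livers. In the mixed pair it was 56.8 to 75.4 TPM in WT and 134 to 246 TPM in YKTH livers. *Spp1* alone was at 26 to 49 TPM in WT (C57BL/6) and 303 to 725 TPM in YAP KO livers. In WT (mixed) livers *Spp1* was at 38.9 to 50.7 TPM and in YKTH livers at 84.4 to 208 TPM. Of the 8 biliary markers that passed the filter, 4 rose in each model (*Spp1*, *Sox9*, *Prom1* and *Bicc1*). *Epcam* fell by 1.48 on the log2 scale in YKTH livers (limma adjusted p = 0.00118). It passed the filter of that fit only through WT livers, at 1.65 to 3.36 TPM against 0.24 to 0.544 TPM in YKTH livers. The duct cytokeratin *Krt19* was at 0.216 to 1.59 TPM in WT (C57BL/6) and 0.608 to 3.15 TPM in YAP KO livers, and at 0.963 to 6.39 and 0.404 to 1.82 TPM in the mixed pair. *Krt7*, *Cftr* and *Cdh6* were under 1 TPM in all 12 livers, and none of the 12 was at 0 in all mice of a group.

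Marker transcripts of some other cell types also differed between knockout and WT livers. The 8 macrophage markers rose in each model, of which *Itgam* passed the filter only through knockout livers, from a sum of 206 to 255 TPM to 509 to 793 TPM (YAP KO) and from 185 to 392 TPM to 769 to 967 TPM (YKTH). Of 8 stellate cell and fibroblast markers 5 rose in each model and 1 fell in YAP KO livers, with sums of 137 to 162 and 394 to 504 TPM in the first pair and 119 to 151 and 327 to 412 TPM in the second. The endothelial sums, with 0 of 8 markers rising and 2 falling in YAP KO and 1 rising and 2 falling in YKTH livers, overlapped between knockout and WT livers in both pairs (78.7 to 118 TPM in YAP KO and 83 to 90 TPM in WT (C57BL/6) livers). Of the 8 pancreas and gut markers 6 were tested in YAP KO livers, where 1 fell (*Fabp2*), and 2 in YKTH livers, where both fell (*Fabp2* and *Cela1*), with 0 rising. The pancreatic enzyme genes *Cpa1*, *Prss2*, *Pnlip* and *Try4* varied between mice of the first pair, where *Pnlip* reached 8.12 TPM in the highest WT (C57BL/6) and 11.7 TPM in the highest YAP KO liver and was listed at 0 in the lowest of each group. None of the 4 passed the test in YAP KO livers (log2 fold changes of 0.49 to 0.83). In the mixed pair *Cpa1*, *Pnlip* and *Try4* were listed at 0 in all livers, and *Prss2* reached 0.313 TPM. Without scaling, the hepatocyte list had 1 higher and 2 lower in YAP KO and 0 higher and 1 lower in YKTH livers, the endothelial list 1 higher and 1 lower in each model, and the stellate cell list 7 and 5 higher with 0 lower. The part of these cells in the levels of the 10 genes was not tested.

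*Cldn7* (ENSMUSG00000018569, 4 exons in its longest transcript, chr11:69964779-69967885) showed the largest change of the 8 tested genes. It encodes a claudin found in many simple epithelia, where it also lies along the lateral membrane. It was at 0.925, 0.291 and 0.996 TPM in WT (C57BL/6) livers against 12.1, 14.7 and 13.1 TPM in YAP KO livers. In the mixed pair it was at 0.546, 0.3 and 1.28 TPM in WT and at 20.5, 18 and 11.9 TPM in YKTH livers. The lowest knockout liver of either model was far above the highest WT liver. Mean TPM differed 18-fold and 23.8-fold. The log2 fold change was 2.82 (SE 0.2, limma adjusted p = 4.86e-05) in YAP KO and 3.17 (SE 0.28, limma adjusted p = 0.000104) in YKTH livers. With a pseudocount of 0.1 it was 3.8 and 4.24. Without any 1 of the 3 YAP KO mice, *Cldn7* had too few libraries at 1 TPM to be tested there.

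*Cldn1* (ENSMUSG00000022512, chr16:26356642-26371841) encodes a barrier-forming claudin, loss of which in people causes a disease of the skin and bile ducts. It was at 12, 9.56 and 30.1 TPM in WT (C57BL/6) livers against 58.3, 48.4 and 80.8 TPM in YAP KO livers. The WT mouse LM75 was the highest of its group by a wide margin, still below every YAP KO mouse. *Cldn1* was at 12.5, 8.81 and 12.8 TPM in WT (mixed) and at 72.5, 65.5 and 41.9 TPM in YKTH livers. Fitted log2 fold changes were 1.59 (SE 0.38, limma adjusted p = 0.0134) in YAP KO livers and 1.97 (SE 0.24, limma adjusted p = 0.0005) in YKTH livers. With each mouse left out in turn it ran from 1.28 to 2.09 and from 1.8 to 2.24, and all of these fits kept the call.

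*Ocln* (ENSMUSG00000021638, chr13:100496507-100552718), with 9 exons in its longest transcript, had a pattern like that of *Cldn1*. It was at 5.07, 6.03 and 11.9 TPM in WT (C57BL/6) livers, again highest in LM75, and at 19.3, 24.6 and 29.5 TPM in YAP KO livers. The WT (mixed) livers were close together, at 7.33, 7.14 and 7.5 TPM, and the YKTH livers were at 34.4, 31.8 and 21.9 TPM. No knockout liver overlapped with its WT group. The log2 fold change was 1.28 (SE 0.29, limma adjusted p = 0.00975) and 1.54 (SE 0.19, limma adjusted p = 0.000513), with ranges of 1.04 to 1.64 and 1.4 to 1.77 with each mouse left out. Across the 12 livers the Pearson correlation of log2 levels was 0.957 between *Cldn1* and *Ocln*, 0.922 between *Cldn1* and *Cldn7* and 0.937 between *Cldn7* and *Ocln*. These points share the group structure and the scaling, so the values are descriptions.

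*Cldn2* (ENSMUSG00000047230, chrX:139800828-139811386), the channel-forming claudin, was at 48.1, 37.1 and 39.5 TPM in WT (C57BL/6) and at 79.9, 73.2 and 89.3 TPM in YAP KO livers. Of the mixed groups, *Cldn2* was at 43.8, 39.6 and 43 TPM in WT and at 77.1, 63.4 and 103 TPM in YKTH livers. The groups did not overlap in either pair, and LM225, the YKTH mouse lowest for *Cldn7*, *Cldn1* and *Ocln*, was the highest for *Cldn2*. On the log2 scale *Cldn2* rose by 0.59 (SE 0.11, limma adjusted p = 0.00459) in YAP KO and 0.58 (SE 0.14, limma adjusted p = 0.0141) in YKTH livers, and every fit without 1 mouse kept the call.

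*Cldn3* (ENSMUSG00000070473, 1 exon, chr5:134986214-134987472), a barrier-forming claudin and the most abundant in these livers, was at 175, 148 and 154 TPM in WT (C57BL/6) and at 198, 247 and 293 TPM in YAP KO livers. It was at 139, 152 and 143 TPM in WT (mixed) and at 253, 263 and 226 TPM in YKTH livers. All knockout livers were above their WT group before scaling, but after scaling the YAP KO and WT (C57BL/6) livers overlapped. The log2 fold change was 0.26 (SE 0.12, limma adjusted p = 0.145) in YAP KO and 0.45 (SE 0.13, limma adjusted p = 0.0235) in YKTH livers. The second call was lost without LM226 (adjusted p = 0.0707), LM250 (adjusted p = 0.09) or LM251 (adjusted p = 0.103), and the first passed without scaling (log2 fold change 0.61, adjusted p = 0.0101) and with quantile normalization (0.56, adjusted p = 0.0294). An antisense gene, *Wbscr25*, overlaps the *Cldn3* exon on the other strand and was listed at 0 in all livers.

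*Cldn12* (ENSMUSG00000046798, chr5:5489537-5514958), a claudin that lacks the usual anchor for ZO proteins at its end, was the only one of the 8 tested genes called lower. It was at 34.1, 32.5 and 34.4 TPM in WT (C57BL/6) and at 28.4, 26.9 and 33.4 TPM in YAP KO livers, with 1 YAP KO mouse, LM74, inside the WT range. In the mixed pair it was at 40.6, 37.6 and 33.6 TPM in WT and at 29.5, 26.5 and 32.8 TPM in YKTH livers, without overlap. The log2 fold change was -0.53 (SE 0.1, limma adjusted p = 0.00398) and -0.64 (SE 0.1, limma adjusted p = 0.00163). Both calls ended without scaling, at -0.18 (adjusted p = 0.206) and -0.32 (adjusted p = 0.0604), so *Cldn12* was lower relative to most other genes, and the direction was kept in every fit run.

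*Tjp1* (ENSMUSG00000030516, chr7:65296165-65527781), the ZO-1 gene, was at 9.69, 9.34 and 10.8 TPM in WT (C57BL/6) and at 14.6, 14 and 19.1 TPM in YAP KO livers, and at 12.9, 10.9 and 10.1 TPM in WT (mixed) and 16.1, 14.6 and 18.4 TPM in YKTH livers. All knockout livers were above their WT group on the TPM scale. After scaling the YKTH and WT (mixed) livers overlapped, and the log2 fold change was 0.28 (95% interval -0.01 to 0.58, limma adjusted p = 0.115) in YAP KO and 0.19 (-0.05 to 0.44, adjusted p = 0.192) in YKTH livers. Without scaling both passed, at 0.62 (adjusted p = 0.00969) and 0.49 (adjusted p = 0.0202).

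*Cldn14* (ENSMUSG00000047109, chr16:93919031-94008837), a claudin known from the inner ear and kidney, was at 8.25, 7.83 and 9.63 TPM in WT (C57BL/6) and 13.5, 8.66 and 12.2 TPM in YAP KO livers, and at 11.7, 7.54 and 9.76 TPM in WT (mixed) and 8.86, 9.71 and 15.6 TPM in YKTH livers. The groups overlapped in both pairs. The fitted log2 change was 0.04 (95% interval -0.36 to 0.44) and -0.1 (-0.55 to 0.35), with adjusted p = 0.883 and 0.722 from limma, and its sign changed between settings.

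*Cldn4* (ENSMUSG00000047501, chr5:134945119-134946934), a barrier-forming claudin of ducts and other epithelia, was at 0.234, 0.0624 and 0.251 TPM in WT (C57BL/6) livers against 2.58, 0.938 and 2.8 TPM in YAP KO livers, without overlap. In the mixed pair it was at 0.13, 0.322 and 0.229 TPM in WT and at 1.97, 0.912 and 0.218 TPM in YKTH livers, where LM225 lay inside the WT range. With no filter on low values the fitted log2 change was 1.19 (limma adjusted p = 0.0136) in YAP KO and 0.54 (adjusted p = 0.212) in YKTH livers.

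*Cldn6* (ENSMUSG00000023906, chr17:23679249-23682446), a claudin of embryonic epithelia, was at 0.246, 0.395 and 0.265 TPM in WT (C57BL/6) and at 0.267, 0.309 and 0.96 TPM in YAP KO livers. It was at 0.343, 0.136 and 0.965 TPM in WT (mixed) livers, and in YKTH livers at 0.0694 and 0.0766 TPM in 2 mice and listed at 0 in LM251. With no filter neither difference passed (adjusted p = 0.726 and 0.113, limma). All its values are under 1 TPM.

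**Figure D2:**
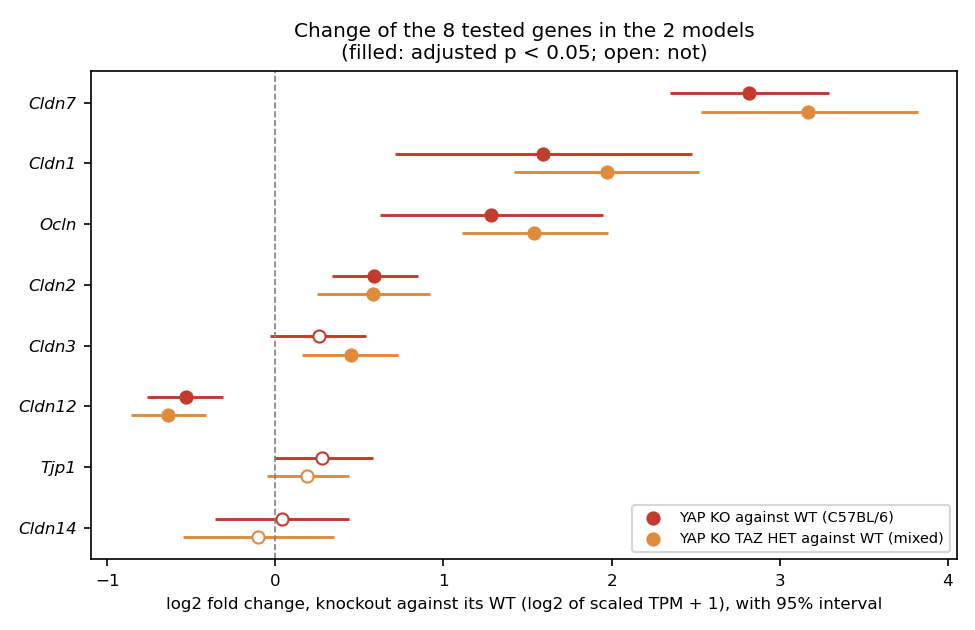
Log2 fold change (horizontal axis, log2 of scaled TPM + 1, with 95% interval) of the 8 tested genes for YAP KO and YKTH livers, each against its own WT group of 3 mice, with filled points for an adjusted p under 0.05. Cldn7, Cldn1, Ocln and Cldn2 lie above 0 and Cldn12 below it in both models, and the intervals of the 2 models overlap for every gene.

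The size of the change was compared between the models over all 12 livers, as the YAP KO change minus the YKTH change. Of the 9 genes tested 0 passed (limma, all adjusted p = 0.998), 0 had an unadjusted p under 0.05, and 0.0576% of all 12159 genes passed. The difference was -0.34 for *Cldn7* (95% interval -1.17 to 0.48), -0.39 for *Cldn1* (-1.5 to 0.72), -0.27 for *Ocln* (-1.09 to 0.56), 0 for *Cldn2* (-0.41 to 0.41), -0.2 for *Cldn3* (-0.59 to 0.19) and 0.09 for *Cldn12* (-0.18 to 0.37). The intervals are wide, so a difference of the size of 1 log2 unit cannot be set aside for *Cldn7*, *Cldn1* or *Ocln*. *Cldn4* differed by 0.65 (-0.26 to 1.56). It entered this fit only through knockout livers, LM74 and LM189 of YAP KO and LM250 of YKTH. The models differ in strain, in the EYFP reporter, in the copies of *Wwtr1* and in the *Yap1* level that was left (1.67 to 3.72 TPM against 8.63 to 11.5 TPM), and the parts of these cannot be told apart.

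The WT groups of the 2 strains were compared in the same way. Of the 7 genes tested 0 passed (limma, 0 with an unadjusted p under 0.05), and 0.216% of all 11126 genes did. The log2 differences, WT (mixed) minus WT (C57BL/6), ran from -0.46 for *Cldn1* (95% interval -1.32 to 0.39) to 0.11 for *Tjp1* (-0.15 to 0.37). The *Cldn1* value was 0.02 without LM75.

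The make-up of the claudin transcripts does not depend on the scaling, since each share is taken within a library. The summed level over all 32 claudin genes in the tables does depend on it, and is given on TPM as deposited, without scaling. It was 249 to 293 TPM in WT (C57BL/6) and 410 to 545 TPM in YAP KO livers, and 258 to 262 TPM in WT (mixed) and 442 to 487 TPM in YKTH livers (exact permutation, two-sided, p = 0.1 for each pair, the smallest possible). On that scale 47.5% and 44.4% of single tested genes had all knockout mice above all WT mice. The 8 claudins described here made up 94.6% to 97.7% of the claudin sum in all 12 livers. The share of *Cldn1* was 6.25% ± 3.95 in WT (C57BL/6) and 13.4% ± 1.93 in YAP KO livers, and 4.38% ± 0.847 in WT (mixed) and 12.8% ± 2.88 in YKTH livers (SD, n = 3 each). The share of *Cldn7* was 0.263% ± 0.128 and 2.91% ± 0.496 in the first pair and 0.273% ± 0.198 and 3.58% ± 0.789 in the second. *Cldn12* went the other way, from 12.3% ± 0.751 to 6.43% ± 0.441 and from 14.3% ± 1.26 to 6.36% ± 0.94. For these 3 claudins no knockout liver overlapped with its WT group in either pair (exact permutation test, p = 0.1 each, the smallest possible). The *Cldn4* share was higher without overlap in YAP KO livers only, and the *Cldn6* share lower without overlap in YKTH livers only. How often such shares separate for other genes was not counted. *Cldn3* held 58% ± 2.46 of the claudin sum in WT (C57BL/6) and 53.1% ± 4.39 in YAP KO livers, and 55.9% ± 2.83 and 53% ± 2.5 in the mixed pair, with overlap in both, and the *Cldn2* shares overlapped too. A lower share can come from the rise of the others as well as from a fall of the gene itself.

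**Figure D3:**
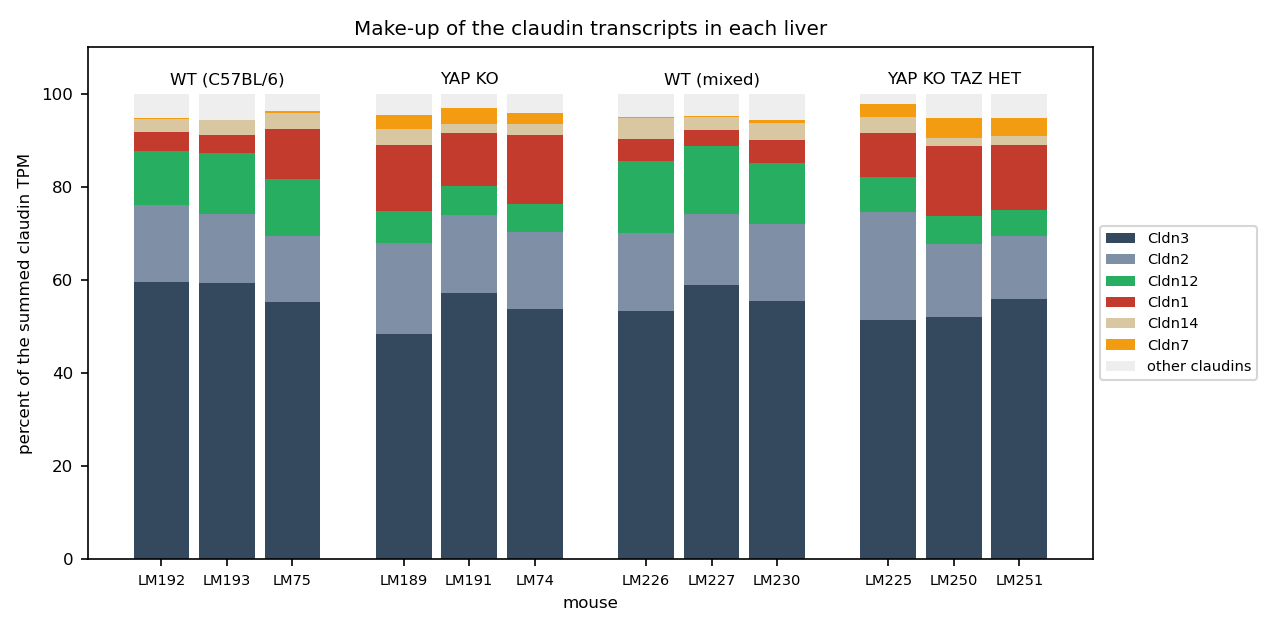
Share of each claudin in the summed claudin TPM of a library (vertical axis, percent) for each of the 12 mice (horizontal axis), grouped by genotype, with claudins that are not named drawn together at the top. Cldn3 takes the largest share in all 12 livers, and in knockout livers the bands of Cldn1 and Cldn7 are wider and that of Cldn12 narrower than in WT livers.

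The other junction genes were taken from lists of claudins, junction proteins and their regulators. Among them were 24 other claudins, of which 2 passed the filter. *Cldn23*, one of the less studied claudins, was listed at 0 in all WT (C57BL/6) livers and was at 5.47 to 5.92 TPM in YAP KO livers, and it was at 0 to 0.128 TPM in WT (mixed) and 4.21 to 11.9 TPM in YKTH livers. Its fitted log2 difference was 2.59 (SE 0.14, limma adjusted p = 8.61e-06) and 2.91 (SE 0.32, adjusted p = 0.000302), and it passed the filter only through knockout livers. *Cldn5*, the claudin of endothelial cells, was at 8.62 to 13.5 TPM in WT (C57BL/6) and 6.54 to 11.2 TPM in YAP KO livers (log2 fold change -0.65, adjusted p = 0.0292) and missed the threshold in the mixed pair (-0.75, adjusted p = 0.111). The first call was lost in 4 of the 6 fits without 1 mouse, without scaling (-0.32, adjusted p = 0.264), without the filter and in the fit of all 12 libraries.

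The counts of each list stand beside 18.8% of all tested genes higher and 17.9% lower in YAP KO livers, and 19.2% and 19.0% in YKTH livers. Among the plaque proteins that sit under the strands, 7 of 15 tested genes rose and 3 fell in YAP KO livers, and 6 rose and 2 fell in YKTH livers, with a median log2 fold change of 0.18 and 0.12 beside -0.04 over all genes tested in each fit. *Tjp3*, the ZO-3 gene, rose most, from 5.99 to 10.4 TPM in WT (C57BL/6) livers to 42.2 to 58.5 TPM in YAP KO livers (log2 fold change 2.22, SE 0.2, limma adjusted p = 0.000145) and by 2.25 (SE 0.27, adjusted p = 0.00045) in YKTH livers. *Cgn* (cingulin, a link to the actin belt) rose by 1.39 (adjusted p = 0.000154) and 1.52 (adjusted p = 0.00105). *Amotl2*, an angiomotin that binds YAP and is a known YAP target, fell by 0.77 on the log2 scale (adjusted p = 0.0274) and by 1.27 (adjusted p = 0.0003). *Amot*, another angiomotin that binds YAP, named here after its values were seen, went the other way and rose by 1.19 in each model (adjusted p = 0.00176 and 0.000284).

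The genes of tricellular corners and of the occludin (MARVEL) family had 3 tested members, of which 2 rose in each model. *Marveld2* (tricellulin) rose by 0.99 (SE 0.13, limma adjusted p = 0.000725) and 1.38 (SE 0.14, adjusted p = 0.000209). *Lsr* (angulin 1, which recruits tricellulin) was at 189 to 204 TPM in WT (C57BL/6) and 402 to 443 TPM in YAP KO livers, and at 167 to 196 TPM in WT (mixed) and 409 to 453 TPM in YKTH livers (adjusted p = 0.000877 and 0.000252). Of 7 junctional adhesion molecules 4 rose and 0 fell in each model, with a median log2 fold change of 0.93 and 0.64. They were *Cxadr* (the coxsackievirus and adenovirus receptor, 2.22 and 1.67), *Clmp* (1.16 and 1.55), *Jam2* (0.98 and 1.22) and *F11r* (JAM-A, 0.93 and 0.64). *Clmp* was under 1 TPM in all WT livers and passed the filter only through knockout livers.

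Of 13 adherens and gap junction genes 6 were higher and 2 lower in YAP KO livers and 4 higher and 2 lower in YKTH livers. *Cdh1* (E-cadherin, the adhesion protein of epithelial adherens junctions) rose from 11.9 to 14.2 TPM in WT (C57BL/6) livers to 71.9 to 94.8 TPM after YAP loss, and from 6.77 to 12.9 TPM to 62.5 to 93.4 TPM in the mixed pair (log2 fold change 2.25, SE 0.12, limma adjusted p = 1.02e-05, and 2.73, SE 0.24, adjusted p = 9.72e-05). *Nectin1* rose by 1 and 0.9 and *Nectin2* by 0.83 and 0.7, while *Nectin3* fell by 0.62 and 0.77 on the log2 scale. Of 12 polarity genes, whose proteins place the junction belt, 0 rose and 2 fell in YAP KO livers and 2 rose and 2 fell in YKTH livers, with medians of -0.03 and 0. *Lin7a*, of the crumbs complex, fell by 1.3 and 1.55 on the log2 scale (adjusted p = 0.00111 and 0.00257). Of 14 regulators of junctions and their actin belt, 5 rose and 3 fell in each model, among them *Arhgef2* (GEF-H1, a GTPase activator held at tight junctions), which rose by 1.14 and 1.3, *Vasp* by 0.87 and 0.75, and *Msn* (moesin) by 0.84 and 0.86, and *Prkaa2* (a catalytic AMPK subunit), which fell by 0.64 and 0.71.

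Leaving out the scaling moved the lists upward, as it did all genes tested, of which 37.5% were then higher and 7.13% lower in YAP KO livers and 34.8% higher and 7.55% lower in YKTH livers. The plaque list then had 8 higher and 0 lower in YAP KO and 7 higher and 1 lower in YKTH livers, the adherens and gap junction list 9 and 0, and 9 and 1, the polarity list 4 and 1 in each, and the regulators 8 and 0, and 7 and 1, while the tricellular list kept 2 and 0 in each and the adhesion molecules had 4 and 0, and 5 and 0. The calls of lower *Amotl2*, *Nectin3*, *Prkaa2* and *Cldn5* in YAP KO livers ended there, and that of *Lin7a* stayed in both models. In YKTH livers the calls of lower *Amotl2* (-0.98, limma adjusted p = 0.000655), *Nectin3* (-0.48, adjusted p = 0.0182) and *Prkaa2* (-0.4, adjusted p = 0.0428) stayed.

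**Figure D4:**
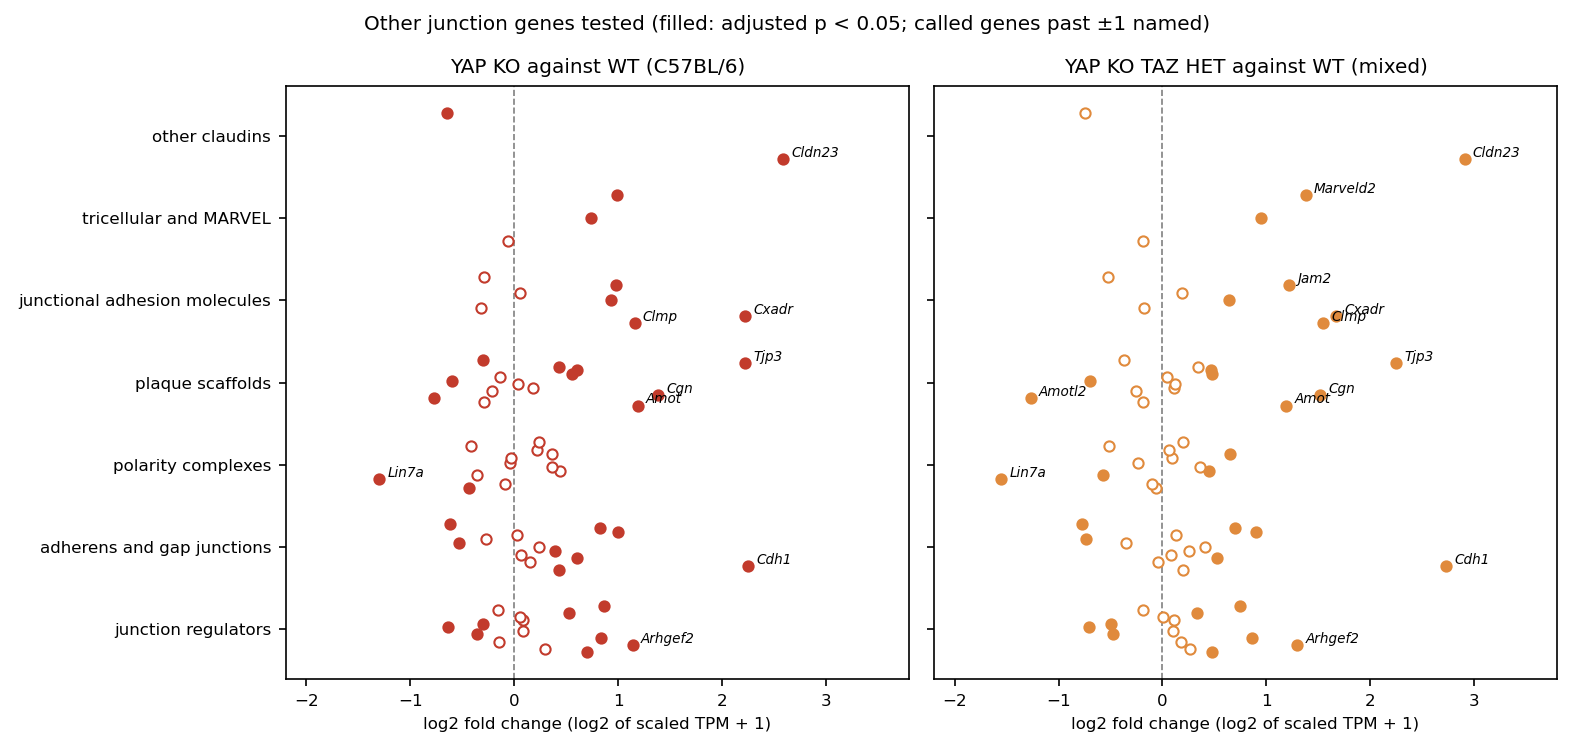
Log2 fold change (horizontal axis, log2 of scaled TPM + 1) of the other tested junction genes by list (vertical axis) in YAP KO livers (left) and YKTH livers (right), with filled points for an adjusted p under 0.05 and names for called genes past 1 in size. In the polarity list Lin7a lies farthest to the left, and Cldn23, Cdh1, Tjp3 and Cxadr lie farthest to the right.

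By the likeness of their log2 level over the 12 livers, among 12158 other genes, *Cldn7* was closest to *Aqp7* (Pearson r = 0.99), *Itm2c* (0.989) and *Ctps2* (0.989). *Cldn1* was closest to *Sumo3* (0.981), *Stra6l* (0.981) and *Asap2* (0.974), and *Ocln* to *Arsg* (0.985), *Rit1* (0.981) and *Trim2* (0.977). *Aqp7* (a water and glycerol channel) was likewise low in WT livers, at 0 to 0.122 TPM in WT and 5.03 to 9 TPM in knockout livers. The points share the 4 groups and the scaling, so these are descriptions only.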

How the data were processed

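Claudin and tight junction genes were analysed in whole liver RNA-seq of 12 female mice in 4 groups of 3, grouped by the labels. Per the study's methods, the libraries were read as paired ends of 150 bases, at a nominal 20000000 reads per end for each liver, and mapped to GRCm38.p6 with CLC Genomics Workbench 20.0.3. The values deposited by the authors are TPM per gene and mouse. Their tables also hold their own fold changes, p-values and false discovery rates, made with edgeR in CLC, and these were not used. The number of TPM columns without a sample was 0. No counts were used, so the error is the spread between 3 mice only.

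Each library was scaled by a trimmed mean of log ratios, which leaves out 30% by ratio and 5% by level on either side, and log2(scaled TPM + 1) was used. A gene entered a fit when 3 or more of its libraries reached 1 TPM. The test was limma 3.58.1 under R 4.3.3 (lmFit, then eBayes with a trend, two-sided, adjusted p under 0.05), each model with its own 6 libraries and the difference between the models over 12. The fits were also run on simulated data with a small set of genes changed, as many up as down. That setting does not test the scaling where a large share of genes changes. Exact permutation tests used scipy 1.17.1. Loci were checked in GENCODE M21, where all 10 genes had the same start and end, and promoters were matched for all 10 (for *Tjp1* the nearest RefSeq start lies inside the gene).

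The 10 genes and all lists were chosen with earlier results of these data known. Named were all 10 genes, up to 4 called genes with the largest change per junction list, up to 3 markers per list by mean level, further markers after their values were seen, and the 3 genes most like *Cldn7*, *Cldn1* and *Ocln*. Some listed genes are not reported here and are not drawn, though the list counts include them. Alternatives were a pseudocount of 0.1, no filter or a minimum of 5 TPM, quantile normalization or no scaling, robust shrinkage of variances, each mouse left out in turn and all 12 libraries in 1 fit.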

Additional observations from a re-analysis of the deposited data

How the results depend on the processing

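The values under the alternatives were compared for the members that passed the filter in the main fit. These were 8 in each model, without *Cldn4* and *Cldn6*, 9 in the contrast of the models and 7 in the WT groups. Of their values, 97 of 101 in YAP KO, 98 of 104 in YKTH, all 158 of the contrast of the models and 89 of 91 of the WT groups kept their direction and side of the threshold, or moved by less than the spread where no test passed. The exceptions for the knockout comparisons are the scaling of *Cldn3*, *Cldn12*, *Tjp1* and *Cldn14*, the quantile normalization of *Cldn3*, and *Cldn3* without LM226, LM250 or LM251, and for the WT groups they are *Cldn1* and *Ocln* without LM75. The number of the 10 genes called ran between 4 and 6 in YAP KO and between 5 and 6 in YKTH livers (4 to 5 and 5 to 6 with each mouse left out in turn), and was 0 in every fit run of the contrast of the models and of the WT groups. The 4 without a YAP KO mouse lack *Cldn7*, which then had too few libraries at 1 TPM. Over all genes, the calls in YKTH livers numbered 4486 and fell to 2833 without LM251, those of the contrast of the models numbered 7 and ran from 2 to 20, and those between the WT groups numbered 24 and ran from 9 to 28. No paired analysis was possible because the labels name no litters and the groups share no mouse numbers. The highest YAP KO mouse (LM74) and the highest WT mouse (LM75) for *Cldn1*, *Ocln* and *Tjp1* have neighbouring numbers, and whether they share a litter is not given in the labels. The methods give a nominal depth, but no read counts were used, so the counting error of values under 1 TPM (*Cldn4* and *Cldn6*, and *Cldn7* in WT livers) was not estimated.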
